A study of Mus musculus with 22 samples.

Results

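The 47 genes described here encode the machinery that copies DNA in S phase, and they comprise 47 of the 55414 genes in the count table. They were taken as the rows whose Ensembl identifiers map to a list of symbols, and all 47 were found. RNA was sequenced in bulk from fibroblasts sorted from mouse back skin on day 1, 2 or 4 after surgery. All mice in these groups were operated on, with an incision near the tail and a tunnel made under the skin towards the neck. In the expander group (EXP) an expander hydrogel was left under the skin and stitched in place near the neck, and in the surgery group (CTRL) no hydrogel was left. The 22 libraries form 6 groups, with 4 CTRL and 5 EXP on day 1 and 3 of each on day 2. For day 4 there were 4 CTRL and 3 EXP. The sort discarded cells carrying CD31, CD45, CD117 or EpCAM and kept live cells positive for CD34 and PDGFRα, so each library is a mixed pool of dermal fibroblasts. Strain and age are not stated in the sources used here. No label says that each library came from a different mouse, so p-values measure the spread between these libraries, which may in part be technical.

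A cell prepares to copy its genome before S phase by loading a ring of 6 MCM proteins onto each origin, with the origin recognition complex, Cdc6 and Cdt1 as loaders. In S phase Cdc45 and the GINS complex join the ring to form the working helicase. DNA polymerases, their clamp Pcna, the clamp loader and the flap nuclease and ligase that seal the lagging strand then follow the fork. Ribonucleotide reductase, thymidylate synthase and thymidine kinase supply the nucleotides. Most of these genes are targets of the E2F transcription factors, which Rb proteins hold in check until cyclin E and Cdk2 release them, and E2f7 and E2f8 are repressors in the same circuit. Resting skin fibroblasts divide rarely, and after injury fibroblasts re-enter the cell cycle, so RNA of these genes is widely read as a sign of cycling cells. In bulk RNA, fewer cells in S phase and less RNA per cell cannot be told apart.

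Promoter sequences of the members were read because E2F proteins and the CCAAT-binding factor NF-Y act at many of these genes. RefSeq promoters of mouse build GRCm38.p6, each 300 bases long with 250 before the transcription start and 50 after it, existed for 40 of the 47 members. They were searched on both strands for the E2F letters TTTCCCGC, TTTCGCGC, TTTGCCGC and TTTGGCGC, for the NF-Y letters CCAAT and for the cell cycle homology letters TTTGAA. E2F letters stood in 17 of 40 members (42.5%), against 2.60% of the 27025 genes with a promoter in the table. CCAAT stood in 25 of 40 (62.5%, against 41.1%) and TTTGAA in 7 of 40 (17.5%, against 20.2%). Counted per promoter rather than per gene, 2.26% of the 32851 promoters of this length held E2F letters, 37.4% held CCAAT and 17.9% held TTTGAA.

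The 160 bases before the start are shown, 5′ to 3′ on the gene's strand, for 6 members that stand for some of the different outcomes below. Capitals mark E2F letters or CCAAT, or their reverse complements. Mcm6 (chr1:128359706-128359865, minus strand), Mcm5 (chr8:75109349-75109508, plus strand) and Orc1 (chr4:108579294-108579453, plus strand) hold both kinds of letters and were higher in EXP on day 2. Gins3 (chr8:95633399-95633558, plus strand) holds both and passed the test on no day. Rrm2 (chr12:24708094-24708253, plus strand) and Pcna (chr2:132253181-132253340, minus strand) hold only CCAAT in this stretch, and moved in opposite directions on day 1. Rrm2 was also called higher in EXP on day 2, and Pcna was not called on that day. Chaf1b, Rfc5, Tyms and Tk1, not shown, hold neither kind of letters in their promoters and were called higher on day 2 as well. In Mcm6 and Mcm5 a run of 12 capitals holds 2 overlapping E2F matches, 1 on each strand.
Mcm6: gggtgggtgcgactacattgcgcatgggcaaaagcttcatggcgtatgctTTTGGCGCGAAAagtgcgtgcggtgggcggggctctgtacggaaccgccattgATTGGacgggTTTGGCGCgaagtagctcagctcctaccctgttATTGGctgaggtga
Mcm5: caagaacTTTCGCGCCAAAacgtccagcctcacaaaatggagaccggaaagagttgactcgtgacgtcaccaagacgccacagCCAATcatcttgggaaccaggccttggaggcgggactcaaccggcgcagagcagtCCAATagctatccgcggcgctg
Orc1: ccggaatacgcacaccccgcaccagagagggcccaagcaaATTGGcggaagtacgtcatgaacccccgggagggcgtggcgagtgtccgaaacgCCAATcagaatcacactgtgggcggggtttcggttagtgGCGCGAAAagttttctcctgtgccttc
Gins3: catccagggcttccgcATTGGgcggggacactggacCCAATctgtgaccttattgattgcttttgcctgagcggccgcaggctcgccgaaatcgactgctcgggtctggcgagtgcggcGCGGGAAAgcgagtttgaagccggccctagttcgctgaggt
Rrm2: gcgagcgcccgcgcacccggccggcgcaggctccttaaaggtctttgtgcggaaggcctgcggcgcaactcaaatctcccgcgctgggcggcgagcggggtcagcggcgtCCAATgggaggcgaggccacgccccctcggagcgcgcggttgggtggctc
Pcna: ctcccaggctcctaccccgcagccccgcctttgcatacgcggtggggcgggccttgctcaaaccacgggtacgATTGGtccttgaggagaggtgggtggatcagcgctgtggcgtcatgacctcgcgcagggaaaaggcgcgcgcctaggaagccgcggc
A letter match is a description of the sequence and not a bound site. Of the 17 members with E2F letters, 11 were called higher on day 2, and of the 23 without them, 8 were. This split was not tested.

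Library totals ran from 21461294 to 30210204 counts, and 3 counts, taken as the detection floor, equal 0.0993 to 0.140 CPM (counts scaled to a common total). This floor reflects counting error alone. Genes of the surface proteins sorted against had low levels, with highest values of 3.76 CPM for Pecam1 (CD31), 0.248 for Ptprc (CD45), 0.752 for Kit (CD117) and 1.89 for Epcam. Cd34 had group means of 459 to 1710 CPM and Pdgfra of 200 to 922 CPM. A set of 192 genes, with correlations above 0.9 to a common gene, split the libraries apart from the groups: 7 libraries lay on its high side (3 CTRL and 2 EXP of day 1, and 2 CTRL of day 4) and 15 on its low side. The labels name no batch that matches this split, and all 6 libraries of day 2 were on the low side. Exons of 15 members overlap an exon of another gene on the opposite strand, among them Orc6, Gins2, Pole, Fen1, Lig1, Tk1, E2f7, Ccne2 and Chaf1a. Whether reads were counted by strand is not given in the sources used here, so those counts are uncertain to that extent.

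The members were low-abundance genes. Summed over all 47, they reached 393 to 475 CPM in day 1 CTRL and 292 to 400 CPM in day 1 EXP. On day 2 the sum was 270 to 333 CPM in CTRL and 691 to 975 CPM in EXP, with no overlap. On day 4 it was 241 to 384 CPM in CTRL and 387, 476 and 1177 CPM in EXP. The highest of these, EXP replicate 1 of day 4, had the highest level of the 7 libraries of that day for 41 of the 47 members and the highest of all 22 libraries for 32. Per kilobase of exon, which allows genes to be compared, mean levels in day 2 EXP were highest for Rrm2 (23.5 CPM per kb), Pcna (16.7), Mcm6 (15.1) and Mcm4 (13.4). They were lowest for E2f2 (0.0605), Chaf1a (0.0874) and Exo1 (0.130).

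**Figure D1:**
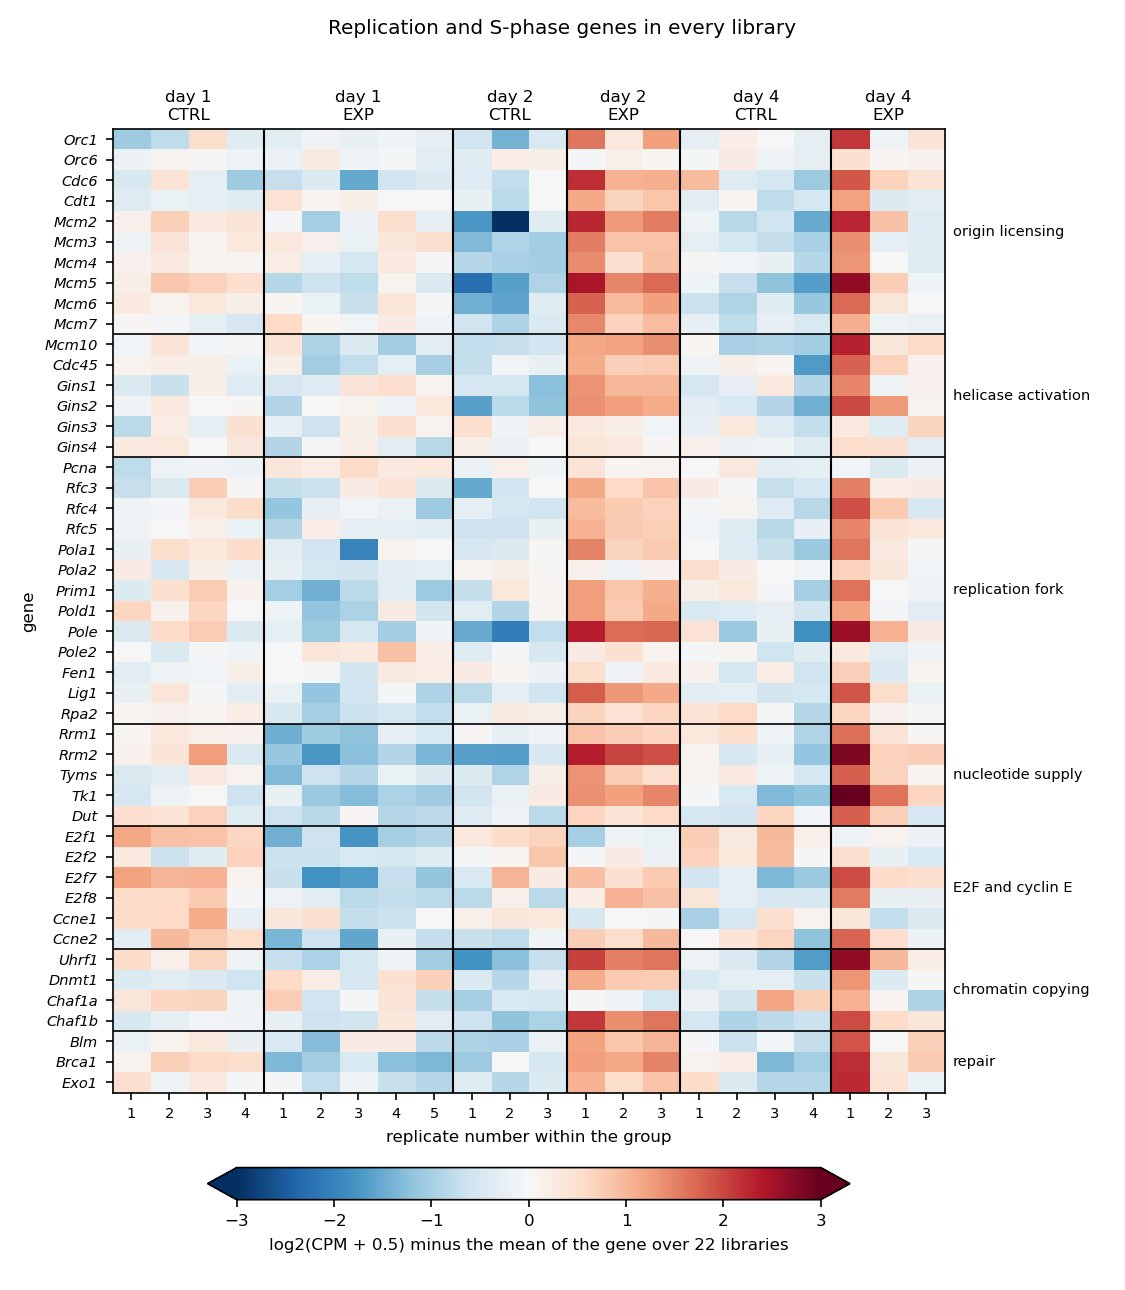
Levels of the 47 members (rows, grouped by role) in each of the 22 libraries (columns, grouped by day and treatment), as log2(CPM + 0.5) centred on each gene's mean. The 3 EXP libraries of day 2 and EXP replicate 1 of day 4 stand out as high over most rows, and the 5 EXP libraries of day 1 as low in the E2F and nucleotide rows.

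EXP was compared with CTRL on each day with edgeR's quasi-likelihood test over the 17554 genes with enough counts, all 47 members among them. A gene was called at a Benjamini-Hochberg adjusted p under 0.05 over all of these genes, and fold changes are log2 values of EXP over CTRL with their standard error (SE). On day 1, 13 of 47 members (27.7%) were called, 2 higher and 11 lower, while 28.6% of all tested genes were called (13.9% higher and 14.7% lower). The share of members called was thus near that of all genes. The median log2 fold change of the members was -0.60, against 0.02 for all genes, and 37 of 47 were below 0. Every EXP library lay above every CTRL library of the day for 3 members and below for 8, orders held by 11.7% and 12.2% of all genes. The 2 higher members were Pcna and Dnmt1, and the 11 lower ones were Prim1, Rpa2, Rrm1, Rrm2, Dut, E2f1, E2f2, E2f7, E2f8, Ccne2 and Brca1. With libraries scaled to their totals in place of TMM, 8 were called (17%, against 29.2% of all genes), 3 higher and 5 lower. Among libraries on the high side of the split 10 were called (21.3%, against 13.7% of all genes), 1 higher and 9 lower, and among those on the low side 1 was, E2f1 (2.13%, against 3.58%). The median was -0.73 on the high side and -0.25 on the low side.

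On day 2 all but 1 of the called members were higher in EXP. The test called 24 of 47 (51.1%), 23 higher and 1 lower, where 13.4% of all genes were called (7.72% higher and 5.71% lower). Their median log2 fold change was 1.48, against 0.02 for all genes, and 42 of 47 were above 0. Every EXP library lay above every CTRL library of day 2 for 36 members, and 20.9% of all genes had this order. The opposite order held for 2 members, E2f1 and Ccne1, and for 18.4% of all genes. The 1 lower member was E2f1. Without EXP replicate 1 of day 2, 16 members were called, with 891 of 18265 genes over all. With library totals in place of TMM 35 members were, all higher (74.5%, against 26.4% of all genes). Of all genes, 4191 were then higher and 441 lower.

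On day 4, 21 of 47 members (44.7%) were called and all 21 were higher in EXP, with 22.5% of all genes called (12.8% higher and 9.66% lower). The median log2 fold change was 1.15, against 0.03 for all genes. Groups that did not overlap were fewer than on day 2, with every EXP library above every CTRL library for 13 members, while 13.8% of all genes had that order. The opposite order held for 1, E2f1, and for 11.8% of all genes. Without EXP replicate 1 the test called 4 members (Chaf1b, Gins2, Tk1 and Uhrf1), with a median of 0.45 and 38 of 47 above 0. That is 8.51% of the members, near the 9% of all genes called in the same fit. Without EXP replicate 3 it called 27, and without CTRL replicate 4 it called 13. Fitted on day 4 alone 7 of 46 members were called, with 1128 of 15845 genes over all. On the low side of the split 3 were, Chaf1b, Gins2 and Tk1 (6.38%, against 5.57% of all genes), and the high side held CTRL only. The other 17 calls of day 4 were lost without EXP replicate 1.

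**Figure D2:**
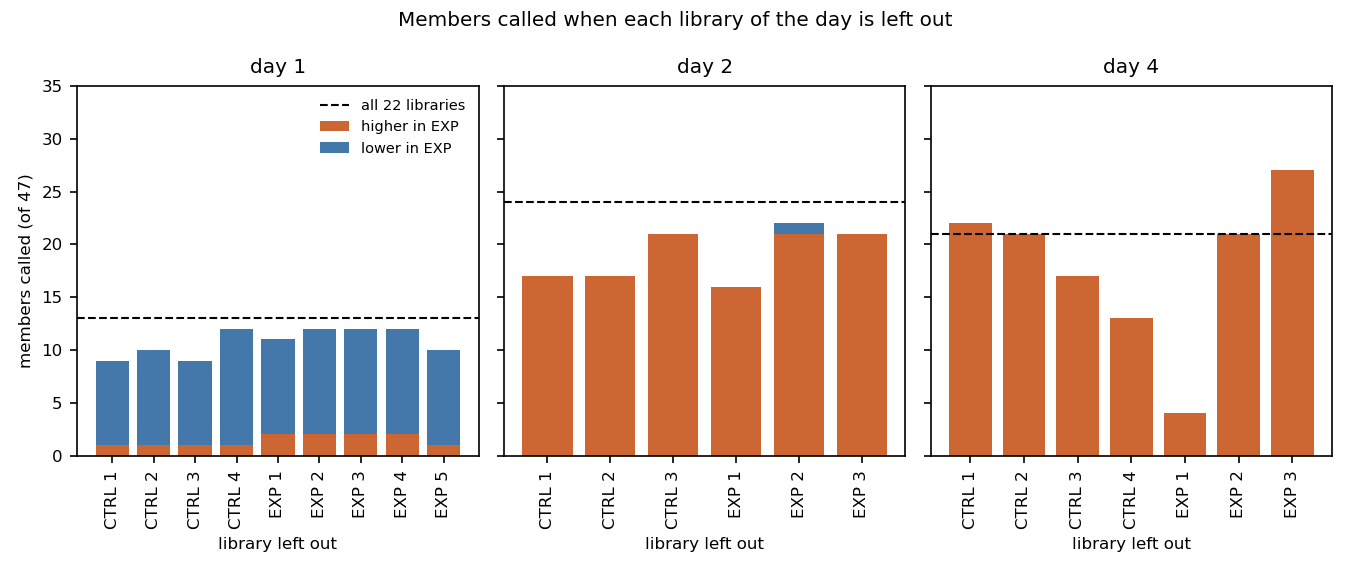
Number of the 47 members called between EXP and CTRL on each day when each library of that day is left out in turn. Bars stack the members lower in EXP on those higher in EXP, and a dashed line gives the count with all libraries. Day 4 drops from 21 to 4 without EXP replicate 1, and the lowest count on day 2, 16, is that without EXP replicate 1.

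Markers of other cell types moved with the groups on some days, and their part in the values above was not tested. On day 1 the summed fibroblast markers, 7 genes led by collagens, were 217150 to 263490 CPM in CTRL and 116840 to 173090 CPM in EXP, and on day 2 they were 291740 to 326310 and 86660 to 182110 CPM. Means of 5 of the 7 were lower in EXP on each day, and the other 2, Pdgfra and Pdgfrb, were higher. Pdgfra, 1 of the genes sorted for, was at 296 to 429 CPM in CTRL and 472 to 860 CPM in EXP on day 1, and at 185 to 211 and 495 to 1292 CPM on day 2. Cd34, the other gene sorted for, went the opposite way, at 1217 to 1603 CPM in CTRL and 326 to 790 CPM in EXP on day 1. On day 2 Cd34 was at 1425 to 1705 CPM in CTRL and 274 to 709 CPM in EXP, and on day 4 its ranges overlapped. The 6 adipocyte markers summed to 0.329 to 12.7 CPM in CTRL and 0 to 0.280 CPM in EXP on day 1, with 5 of 6 lower. On day 2 they summed to 0 to 2.24 CPM in CTRL and 2.83 to 68.0 CPM in EXP, with 5 of 6 higher. On day 4 the sums were 0.118 to 0.926 CPM in CTRL and 2.40, 119 and 327 CPM in EXP replicates 1, 2 and 3, with 6 of 6 higher, so that the library with the highest member levels had the lowest adipocyte sum in EXP. Endothelial markers were higher in EXP for 6 of 7 genes on day 2 (0.399 to 0.699 against 2.22 to 8.50 CPM) and 7 of 7 on day 4 (3.53 to 9.14 against 22.2 to 57.4 CPM). Most of the latter was Tek, at a mean of 30.8 CPM, while Pecam1 was at 2.78 and Cdh5 at 0.401 CPM. Melanocyte and Schwann markers summed to 4.66 to 10.9 CPM in CTRL and 19.4 to 39.7 CPM in EXP on day 2, nearly all of it Mlana, with 3 of 8 genes higher and 3 at 0 in both groups. Immune, keratinocyte and mural sums overlapped between the arms on all 3 days, but some single genes in them did not overlap. Means were higher in EXP for 6 of 10 immune, 2 of 10 keratinocyte and 3 of 6 mural genes on day 2, and for 7, 4 and 3 on day 4. Acta2, a mural and myofibroblast gene, was at 1.16 to 5.45 CPM in CTRL and 13.4 to 39.2 CPM in EXP on day 2, and at 2.07 to 5.29 and 14.3 to 43.3 CPM on day 4. Of the mural genes on day 2, 1 lay wholly above CTRL, Acta2, and 2 wholly below, Des and Kcnj8. Des was at 3.93 to 4.75 CPM in CTRL and 0.417 to 1.72 CPM in EXP, and Kcnj8 at 33.5 to 41.7 and 13.8 to 24.15 CPM. The macrophage gene Cd68 was at 2.61 to 4.66 and 9.10 to 31.5 CPM on day 2, and the T cell gene Cd3e at 0.254 to 5.89 and 12.02 to 38.1 CPM on day 4. Of the immune genes on day 2, 3 lay wholly above CTRL and 1, Csf1r, wholly below. Csf1r was at 91.4 to 127 CPM in CTRL and 42.6 to 85.5 CPM in EXP. EXP replicate 1 of day 4 was the highest of its day for both Acta2 and Cd3e.

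The effect of the expander differed between days for 29 of 47 members (61.7%), by the joint test of both differences between days, where 8.82% of all genes did. Against day 1, the effect on day 2 was higher for 21 members and lower for 0 (2.48% and 0.484% of all genes), and the effect on day 4 was higher for 26 and lower for 1, Pcna (8.16% and 5.18%). Between days 2 and 4 edgeR called 0 of 47 members and 0 of all genes, and 4 members had an unadjusted p under 0.05. The difference between day 2 and day 1 was above 0 for 45 of 47 members. By the calls on single days, days 2 and 4 but not day 1 called 15 members higher, day 2 alone 6, and day 4 alone 3, while 8 members were called lower on day 1 alone. The other patterns had 1 member each or none called: Dnmt1 was higher on all 3 days, Pcna on day 1, Rrm2 first lower and then higher on days 2 and 4, E2f1 lower on days 1 and 2, and E2f7 lower on day 1 and higher on day 4. The 10 members called on no day were Orc6, Cdc6, Gins3, Gins4, Pola2, Pole2, Fen1, Ccne1, Chaf1a and Exo1.

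**Figure D3:**
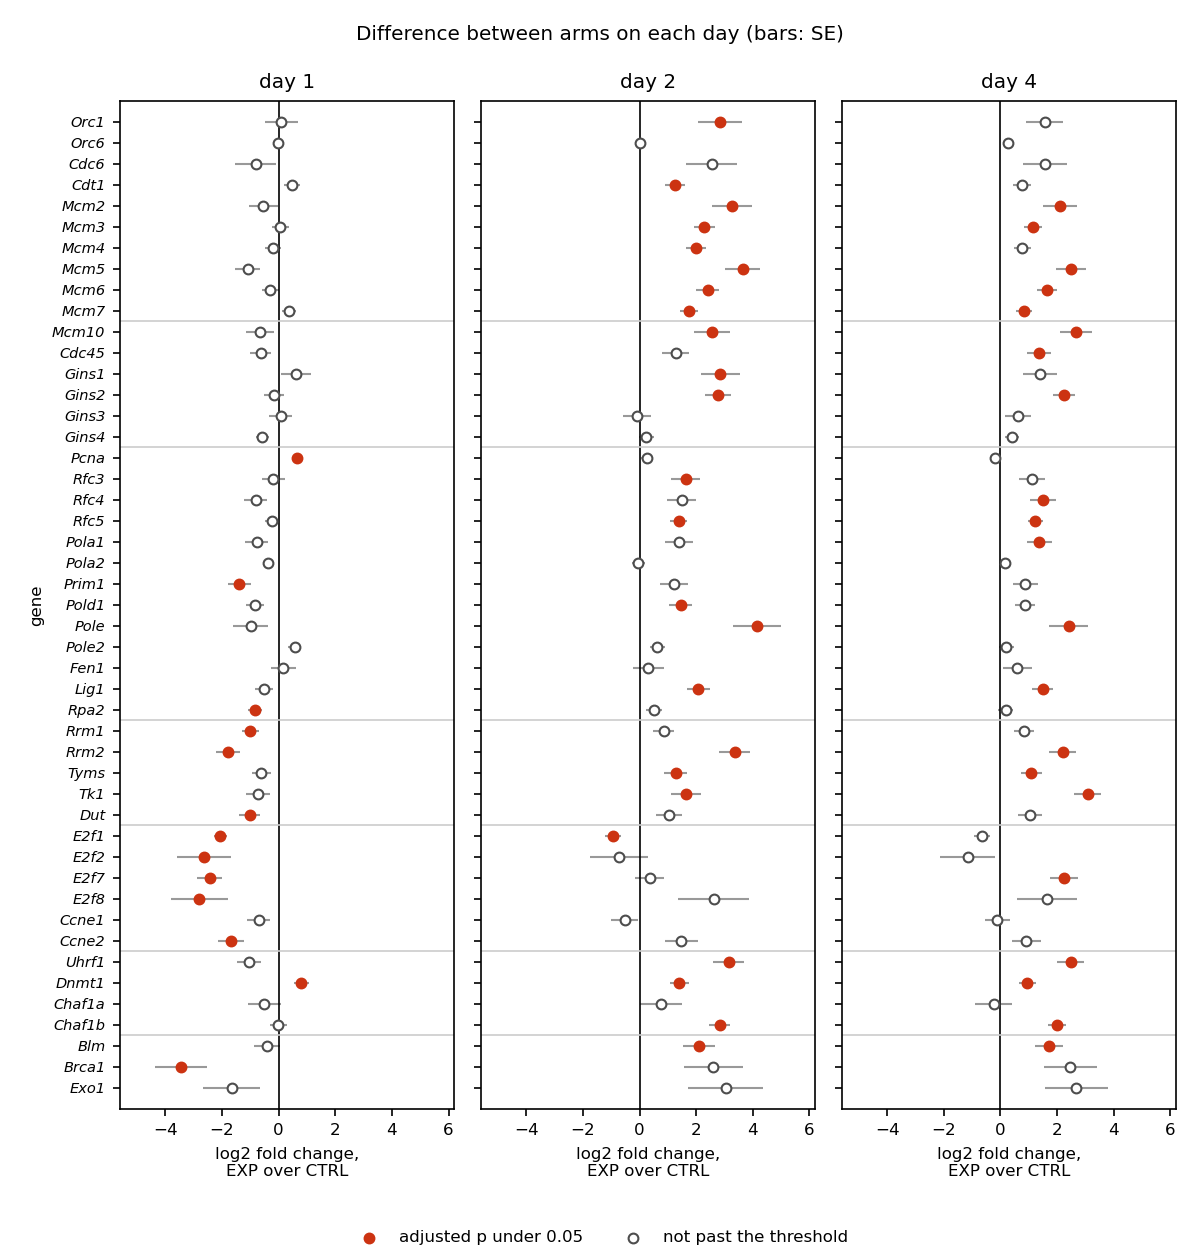
Log2 fold change of EXP over CTRL with its standard error for each member on days 1, 2 and 4, grouped by role, with filled points for an adjusted p under 0.05. Medians move from -0.60 on day 1 to 1.48 on day 2 and 1.15 on day 4, and the E2F and cyclin E genes lie lowest on day 1.

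Of the 10 licensing genes, which load the MCM ring onto origins, 0 were called on day 1 by edgeR (1 at an unadjusted p under 0.05), 8 were higher on day 2 and 5 on day 4. Their median log2 fold changes were -0.11, 2.35 and 1.36. The shares called were 0%, 80% and 50%, where 28.6%, 13.4% and 22.5% of all genes were called on days 1, 2 and 4. Mcm5 (ENSMUSG00000005410), a subunit of the ring, had 1.39, 2.46 and 4.36 CPM in day 2 CTRL and 49.3, 24.8 and 29.1 CPM in day 2 EXP. Every EXP library lay far above every CTRL library, and the log2 fold change was 3.65 (SE 0.62, edgeR adjusted p = 0.000959). On day 4 Mcm5 had 7.88, 5.11, 3.44 and 2.38 CPM in CTRL and 57.3, 14.7 and 7.86 CPM in EXP, so that the lowest EXP library fell just under the highest CTRL library. That difference was 2.50 (SE 0.53, edgeR adjusted p = 0.0034), and 1.26 without EXP replicate 1 (adjusted p = 0.0662). On day 1 Mcm5 had 9.97 to 15.4 CPM in CTRL and 4.51 to 9.30 CPM in EXP, 2 ranges that do not overlap, although the difference of -1.09 did not pass the test (edgeR adjusted p = 0.0771).

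Mcm6 (ENSMUSG00000026355), another subunit, was at 9.76, 8.78 and 21.2 CPM in day 2 CTRL and 93.8, 53.0 and 64.1 CPM in EXP, a log2 fold change of 2.41 (SE 0.40, edgeR adjusted p = 0.000739). The day 4 levels were 12 to 21 CPM in CTRL and 89.0, 35.3 and 27.1 CPM in EXP, again with all EXP libraries above (1.65, SE 0.35, adjusted p = 0.00347; 0.96 and 0.0563 without EXP replicate 1). Mcm2 (ENSMUSG00000002870) had 2.44, 0.575 and 7.23 CPM in day 2 CTRL and 46.8, 23.6 and 28.8 CPM in EXP, a rise of 3.26 (SE 0.69, edgeR adjusted p = 0.0049). The CTRL libraries of Mcm2 were widely spread and the EXP libraries tighter. On day 4 Mcm2 rose by 2.11 (SE 0.60, adjusted p = 0.0177), and without EXP replicate 1 the value was 1.14 (adjusted p = 0.221). Cdt1, the loader that geminin blocks, rose on day 2 by 1.25 (SE 0.35, edgeR adjusted p = 0.0213), a call lost in 3 of the 6 fits that left out a day 2 library. Orc1, Mcm3, Mcm4 and Mcm7 were the other licensing genes called on day 2, with log2 fold changes of 2.85, 2.28, 1.98 and 1.74, and the call of Orc1 was lost in 2 of those 6 fits. The day 4 calls of Mcm3 and Mcm7 were lost without EXP replicate 1, at 0.30 and 0.27 (edgeR adjusted p = 0.461 and 0.53). Orc6, a subunit of the origin recognition complex, stayed between 8.36 and 15.3 CPM in all 22 libraries with fold changes of -0.02, 0.03 and 0.28. Cdc6, the other loader, had 0.366 to 0.944 CPM in day 2 CTRL and 2.48 to 6.21 CPM in EXP, and its difference of 2.54 did not pass the test (edgeR adjusted p = 0.0615).

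**Figure D4:**
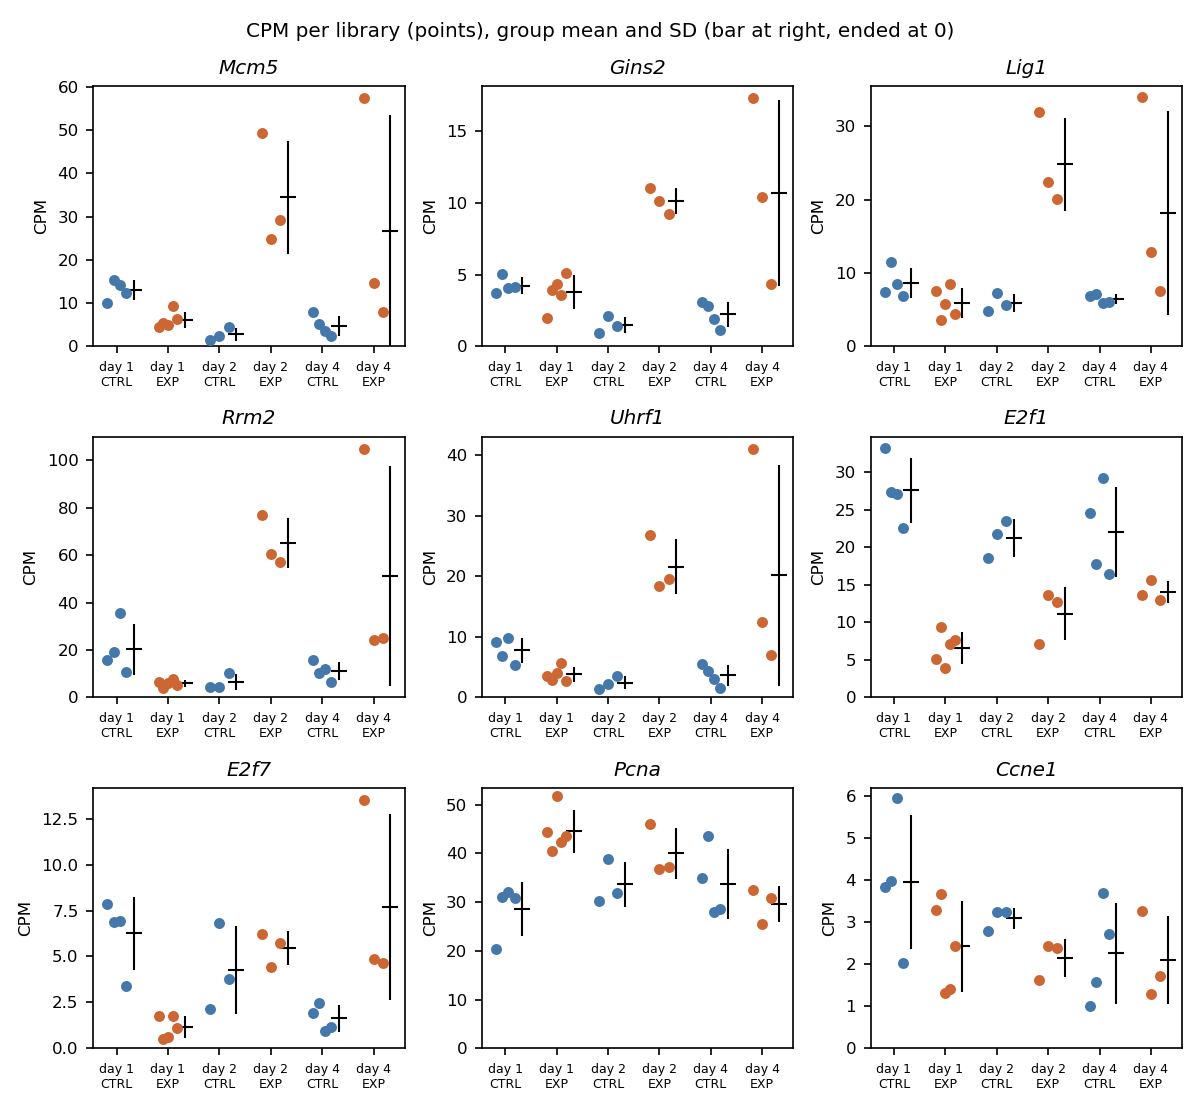
CPM per library (points) for 9 members in the 6 groups, with the group mean and a bar of 1 SD that is cut at 0. On day 2 all 3 EXP libraries lie above all CTRL libraries for Mcm5, Gins2, Lig1, Rrm2 and Uhrf1, E2f1 lies lower in EXP on days 1 and 2, and the Ccne1 groups overlap on days 1 and 4.

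Among the 6 genes that turn the loaded ring into a moving helicase, 0 were called on day 1 by edgeR (1 at an unadjusted p under 0.05), and 3 were higher on day 2 and 3 on day 4. Medians were -0.37, 1.92 and 1.37, and the shares called were 0%, 50% and 50% (28.6%, 13.4% and 22.5% of all genes). Gins2 (ENSMUSG00000031821), 1 of the 4 GINS subunits, had 0.946, 2.09 and 1.44 CPM in day 2 CTRL and 11.1, 10.2 and 9.26 CPM in EXP. Its EXP libraries were close to each other and far above CTRL, with a log2 fold change of 2.77 (SE 0.45, edgeR adjusted p = 0.000715). On day 4 it had 1.17 to 3.10 CPM in CTRL and 17.3, 10.4 and 4.32 CPM in EXP, a rise of 2.25 (SE 0.40, adjusted p = 0.000973) that stayed called without each library of that day. Mcm10, which helps Cdc45 and GINS bind, rose by 2.56 on day 2 (SE 0.64, edgeR adjusted p = 0.0111) and then 2.66 on day 4 (SE 0.57, adjusted p = 0.00352; 1.59 and 0.0671 without EXP replicate 1). The remaining calls were Gins1 on day 2 (2.86) and Cdc45 on day 4 (1.36). The Cdc45 value was 0.73 without EXP replicate 1 (edgeR adjusted p = 0.296), and the Gins1 call was lost in 1 of 6 fits without a day 2 library. Gins3 and Gins4 encode partners in the same 4-part complex and were called on no day. Gins4 had 11.7 ± 1.49 CPM (SD, n = 3) in day 2 CTRL and 13.8 ± 1.63 CPM (SD, n = 3) in EXP. Gins3 had 1.78 ± 0.4929 CPM in CTRL and 1.68 ± 0.285 CPM in EXP on that day (SD, n = 3 each).

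Of the 13 genes of the fork itself, 1 was higher and 2 lower on day 1, 5 were higher on day 2 and 5 on day 4, with medians of -0.53, 1.39 and 0.88. That is 23.1%, 38.5% and 38.5%, against 28.6%, 13.4% and 22.5% of all genes, so the day 1 share was near that of all genes. Lig1 (ENSMUSG00000056394), the ligase that joins Okazaki fragments, had 4.78, 7.21 and 5.62 CPM in day 2 CTRL and 32.0, 22.4 and 20.03 CPM in EXP, and rose by 2.08 (SE 0.41, edgeR adjusted p = 0.00248). On day 4 the EXP libraries had 34.0, 12.9 and 7.61 CPM and CTRL 5.87 to 7.12 CPM. The day 4 rise of 1.5 (SE 0.37, adjusted p = 0.00764) was 0.67 without EXP replicate 1 (adjusted p = 0.172). Pole, the catalytic subunit of the leading-strand polymerase, had 0.104 to 1.03 CPM in day 2 CTRL and 7.63 to 12.5 CPM in EXP, with the largest day 2 fold change of the members (4.16, SE 0.85, edgeR adjusted p = 0.00356). That fold rests on low CTRL levels, with 8, 2 and 23 counts where the floor is 3. In the 6 fits without a day 2 library the fold ran from 3.69 to 5.16 and stayed called. The day 4 value of Pole was 2.41 (SE 0.69, edgeR adjusted p = 0.0179), and 1.41 without EXP replicate 1 (adjusted p = 0.202). Pole2, the accessory subunit of that polymerase, had fold changes of 0.57, 0.63 and 0.21 and passed on no day. Rfc3 and Rfc5 of the clamp loader (1.63 and 1.39) and Pold1 of the lagging-strand polymerase (1.45) were the other calls on day 2, and Rfc4, Rfc5 and Pola1 (1.5, 1.23 and 1.38) on day 4. Without a day 2 library the calls of Rfc3 and Pold1 were lost in 4 and 3 of 6 fits. Without EXP replicate 1 of day 4 the calls of Rfc4, Rfc5 and Pola1 were lost, at 0.63, 0.74 and 0.66 (edgeR adjusted p = 0.382, 0.0686 and 0.366). Prim1, the primase, and Rpa2, of the complex that coats single strands, were the fork genes lower on day 1, at -1.39 (SE 0.40, edgeR adjusted p = 0.0129) and -0.83 (SE 0.23, adjusted p = 0.0106). Both calls were lost with library totals in place of TMM. The lagging-strand genes Pola2 and Fen1 passed on no day, and Fen1 stayed at 0.303 to 1.503 CPM throughout.

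Pcna (ENSMUSG00000027342), the sliding clamp, was 1 of the 2 members called higher on day 1. It had 20.3, 31.1, 32.0 and 30.8 CPM in day 1 CTRL and 44.3, 40.4, 51.8, 42.3 and 43.6 CPM in day 1 EXP, with every EXP library higher. The log2 fold change was 0.64 (SE 0.16, edgeR adjusted p = 0.00552), and it stayed called when any 1 library of day 1 was left out. On day 1 Pcna was called neither among libraries on the high side of the split nor among those on the low side. On day 2 it was 33.7 ± 4.63 CPM in CTRL and 40.004 ± 5.24 CPM in EXP (SD, n = 3 each), a difference of 0.25 (adjusted p = 0.432). On day 4 the difference was -0.19 (adjusted p = 0.491). Pcna has 2 pseudogenes named after it, and reads shared with them could be counted under either gene.

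The 5 genes of nucleotide supply included 3 lower on day 1, and 3 were called higher on each of days 2 and 4, with medians of -1.0, 1.28 and 1.10. On each day 60% were called, against 28.6%, 13.4% and 22.5% of all genes. The effect depended on the day for all 5. Rrm2 (ENSMUSG00000020649), the subunit of ribonucleotide reductase that is made in S phase, had 15.9, 19.2, 35.6 and 10.7 CPM in day 1 CTRL and 6.36, 4.00, 5.85, 7.74 and 5.36 CPM in day 1 EXP. All EXP libraries were below all CTRL libraries (-1.79, SE 0.42, edgeR adjusted p = 0.00367). On day 2 the order was the reverse, with 4.38, 4.34 and 10.2 CPM in CTRL and 77.1, 60.6 and 57.3 CPM in EXP (3.36, SE 0.56, adjusted p = 0.000842). The 3 EXP libraries of day 4 had 105, 24.0 and 24.9 CPM and the CTRL libraries 6.28 to 15.8 CPM, so all EXP libraries were above CTRL (2.21, SE 0.48, adjusted p = 0.00406; 1.14 and 0.074 without EXP replicate 1). Among the 47 members Rrm2 had the smallest p for a day-dependent effect (edgeR adjusted p = 0.00042).

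Rrm1, the partner subunit, fell on day 1 (-1.0, SE 0.30, edgeR adjusted p = 0.0169), and its differences of 0.85 on day 2 and 0.83 on day 4 did not pass. The day 1 call of Rrm1 was lost with library totals in place of TMM. Dut, which keeps uracil out of DNA, fell on day 1 by 1.01 on the log2 scale (SE 0.37, adjusted p = 0.0459), a call lost in 7 of the 9 fits that left out a day 1 library and with library totals in place of TMM. Tk1 (ENSMUSG00000025574), thymidine kinase, had 2.95, 2.10, 0.922 and 1.04 CPM in day 4 CTRL and 28.7, 10.5 and 5.07 CPM in EXP, without overlap. Its rise of 3.08 (SE 0.49, edgeR adjusted p = 0.000421) was the largest of the members on day 4 and stayed called without each library of that day. On day 2 Tk1 rose by 1.64 (SE 0.51, adjusted p = 0.0373), a call lost in all 6 fits that left out a day 2 library. Tyms, thymidylate synthase, rose by 1.28 on day 2 and 1.10 on day 4, and it has a named pseudogene. Its calls were lost in 4 of 6 fits without a day 2 library and in 4 of 7 without a day 4 library, with 0.45 (edgeR adjusted p = 0.441) without EXP replicate 1.

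The E2F and cyclin E genes, which drive and time entry into S phase, had the lowest day 1 median of the 7 roles. Of the 6, 5 were lower on day 1, 1 was lower on day 2 and 1 was higher on day 4, with medians of -2.24, -0.08 and 0.41. That is 83.3%, 16.7% and 16.7%, against 28.6%, 13.4% and 22.5% of all genes, so days 2 and 4 were near the share of all genes. E2f1 (ENSMUSG00000027490), an activator, had 33.3, 27.4, 27.1 and 22.6 CPM in day 1 CTRL and 5.07, 9.33, 3.96, 7.13 and 7.69 CPM in day 1 EXP. The lowest CTRL library was more than 2 times the highest EXP library, and the difference of -2.06 had the smallest p of the members on day 1 (SE 0.24, edgeR adjusted p = 8.75e-06). E2f1 was the single member called among the low-side libraries of day 1. On day 2 it had 18.5, 21.8 and 23.5 CPM in CTRL and 7.16, 13.6 and 12.7 CPM in EXP (-0.93, SE 0.29, adjusted p = 0.0353), a call lost in 5 of 6 fits without a day 2 library and with library totals in place of TMM. On day 4 it had 16.5 to 29.3 CPM in CTRL and 13.6, 15.7 and 12.9 CPM in EXP, all below CTRL (-0.65, adjusted p = 0.0868). E2f1 thus lay lower in every EXP library than in every CTRL library of the same day on all 3 days, while the MCM genes were higher on day 2.

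E2f7 (ENSMUSG00000020185), a repressor, had 7.87, 6.87, 6.91 and 3.37 CPM in day 1 CTRL and 1.78, 0.525, 0.617, 1.75 and 1.09 CPM in day 1 EXP, and fell by 2.43 on the log2 scale (SE 0.44, edgeR adjusted p = 0.000386). On day 2 the groups overlapped (0.37, adjusted p = 0.694). On day 4 CTRL had 0.922 to 2.49 CPM and EXP 13.5, 4.86 and 4.64 CPM, a rise of 2.24 (SE 0.49, adjusted p = 0.00397; 1.55 and 0.0504 without EXP replicate 1). Ccne2 (ENSMUSG00000028212), a cyclin E, fell on day 1 (-1.68, SE 0.47, edgeR adjusted p = 0.0112), and was at 1.31 to 2.29 CPM in day 2 CTRL and 3.93 to 5.501 CPM in EXP (1.48, adjusted p = 0.0985). Ccne1 (ENSMUSG00000002068), the other cyclin E, had fold changes of -0.71, -0.52 and -0.11 and passed on no day, although on day 2 its EXP libraries (1.62 to 2.44 CPM) all lay below CTRL (2.79 to 3.24 CPM). E2f8, a repressor like E2f7, was called lower on day 1 (-2.80, SE 1.01, edgeR adjusted p = 0.0431). This fold rests on few reads, with 19, 19, 28 and 9 counts in CTRL and 8, 5, 0, 1 and 0 counts in EXP. E2f2 was called lower on day 1 from very few reads, with 11, 0, 3 and 20 counts in CTRL and 0, 0, 2, 2 and 3 counts in EXP, so no fold is given. Calls of E2f2 and E2f8 were each lost in 6 of 9 fits without a day 1 library. They were also lost without a filter on low counts and with library totals in place of TMM.

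Of the 4 genes that copy chromatin along with DNA, 1 was higher on day 1 and 3 on days 2 and 4, with medians of -0.25, 2.12 and 1.48. That is 25%, 75% and 75%, against 28.6%, 13.4% and 22.5% of all genes, so the day 1 share was near that of all genes. Uhrf1 (ENSMUSG00000001228), which recognises hemimethylated DNA, had 1.39, 2.25 and 3.59 CPM in day 2 CTRL and 26.8, 18.4 and 19.6 CPM in EXP (3.16, SE 0.55, edgeR adjusted p = 0.00104). On day 4 it had 5.47, 4.33, 3.06 and 1.56 CPM in CTRL and 41.0, 12.5 and 7.04 CPM in EXP (2.49, SE 0.48, adjusted p = 0.00187). All EXP libraries were above all CTRL libraries on both days, and both calls were kept without each library of the day. Chaf1b (ENSMUSG00000022945), a subunit of the histone chaperone CAF-1, rose by 2.83 on day 2 (SE 0.38, adjusted p = 0.000132) and then 2.00 on day 4 (SE 0.33, adjusted p = 0.000644). Chaf1b had the smallest p of the members on day 2 and was called on day 4 also without EXP replicate 1 (1.28, adjusted p = 0.00887). Chaf1a, the large subunit of the same chaperone, passed on no day (-0.50, 0.76 and -0.24) at group means of 0.454 to 1.53 CPM. Dnmt1 (ENSMUSG00000004099), the maintenance methyltransferase, was called higher on all 3 days, by 0.80, 1.41 and 0.95 (edgeR adjusted p = 0.032, 0.00814 and 0.0296). Its calls were lost in 6 of 9 fits without a day 1 library and in 4 of 7 without a day 4 library, with 0.26 (adjusted p = 0.549) without EXP replicate 1. The adjusted p for a day-dependent effect of Dnmt1 was 0.581.

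The 3 repair genes had medians of -1.66, 2.61 and 2.47, with 1 lower on day 1 and 1 higher on each of days 2 and 4. On each day 33.3% were called, against 28.6%, 13.4% and 22.5% of all genes, so the day 1 share was near that of all genes. Brca1 (ENSMUSG00000017146), which acts in recombination at broken forks, had 0.866, 1.61, 1.40 and 1.34 CPM in day 1 CTRL and 0, 0.121, 0.436, 0.0318 and 0 CPM in day 1 EXP. All EXP libraries were lower (-3.44, SE 0.92, edgeR adjusted p = 0.00844), at levels near the floor. On day 2 the EXP libraries had 2.36 to 3.07 CPM and CTRL 0.0996 to 0.784 CPM, and the difference of 2.61 did not pass (adjusted p = 0.105). Blm, a helicase that untangles recombination intermediates, rose by 2.11 on day 2 (SE 0.57, edgeR adjusted p = 0.0172) and then 1.72 on day 4 (SE 0.50, adjusted p = 0.0192). These calls were lost in 3 of 6 and 2 of 7 fits without a library of the day, and the day 4 value was 0.94 without EXP replicate 1 (adjusted p = 0.248). Exo1, a nuclease, passed on no day, with a day 2 value of 3.05 (adjusted p = 0.132) at 0.787 to 1.35 CPM in EXP.

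**Figure D5:**
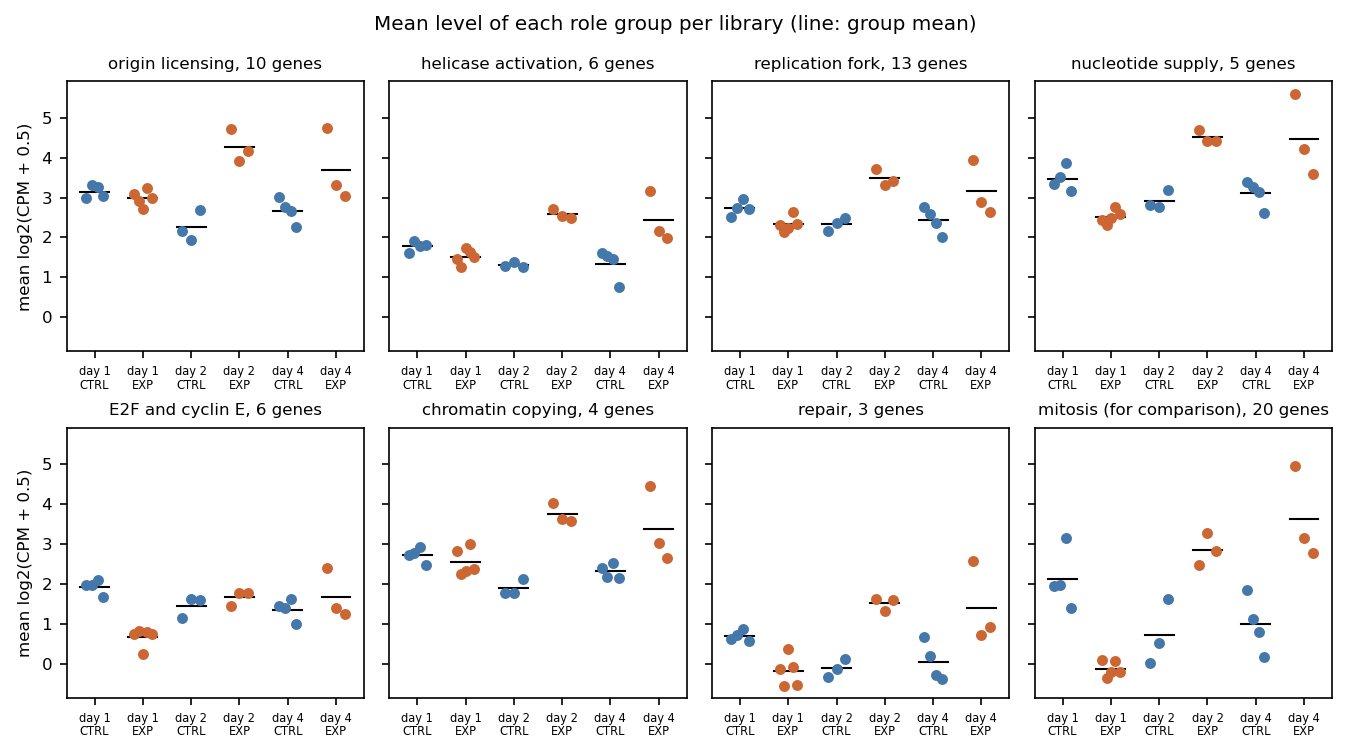
Mean log2(CPM + 0.5) over the genes of each role in each library, for the 7 roles and for 20 mitosis genes, by day and treatment. Day 2 EXP libraries lie above day 2 CTRL in most panels. Group means are lowest in day 1 EXP for the fork, nucleotide, E2F and cyclin E, repair and mitosis panels. EXP replicate 1 of day 4 is the highest library in every panel, by little for licensing (4.739 against 4.708 in EXP replicate 1 of day 2).

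Within each arm the change over days was tested as well. In EXP, 28 of 47 members (59.6%) differed over the 3 days, where 14.3% of all genes did. From day 1 to day 2, 20 members were higher and 0 lower (2.27% and 0.359% of all genes). From day 1 to day 4, 29 were higher and 1, Pcna, lower (12.1% and 6.87%). From day 2 to day 4 edgeR called 0 of 47, with 2 at an unadjusted p under 0.05, where 0.336% of all genes were called higher and 0.0513% lower. In CTRL edgeR called 0 of 47 members over the 3 days and 0.291% of all genes; 11 members had an unadjusted p under 0.05, and DESeq2's likelihood ratio test called 6 (12.8%, against 2.99% of all genes). The CTRL median from day 1 to day 2 was -0.65, with 39 of 47 members below 0. Day 1 included high-side libraries of the split described above (CTRL replicates 1, 2 and 3, EXP replicates 1 and 2), and day 2 included none. The step from day 1 to day 2 was therefore mixed with that split in both arms. The labels name no processing batch, so within an arm a change over days cannot be told apart from a difference in processing. Day 2 EXP had the highest mean of the 6 groups for 24 members and day 4 EXP for 17. Day 2 CTRL had the lowest mean for 21 and day 1 EXP for 20. The comparisons with CTRL and those over days share libraries and are not independent of each other.

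A further 76 genes of replication and S phase that are not members were read from lists fixed by function. On day 1, 24 were called (31.6%, against 28.6% of all genes), 8 higher and 16 lower. On day 2, 29 were called (38.2%, against 13.4%), 27 higher and 2 lower. On day 4, 27 were called (35.5%, against 22.5%), 24 higher and 3 lower. Without EXP replicate 1 of day 4 the test called 5 (6.58%, against 9% of all genes). With library totals in place of TMM the day 1 split was 12 higher and 9 lower (27.6%, against 29.2% of all genes). Medians were -0.38, 0.73 and 0.64. Ccna2, the cyclin that works with Cdk2 in S phase, had the smallest p for a day-dependent effect in these lists (edgeR adjusted p = 0.000211). It fell on day 1 (-4.40, SE 0.63, adjusted p = 5.73e-05) and rose on day 2 (2.87, SE 0.72, adjusted p = 0.0119) and day 4 (2.47, SE 0.62, adjusted p = 0.00961; 2.05 and 0.0587 without EXP replicate 1). Pclaf, a Pcna-binding factor, went the same way, with -3.81, 3.48 and 2.15 (adjusted p = 0.000786, 0.0131 and 0.0385; the last 1.17 and 0.334 without EXP replicate 1). The day 2 calls of Ccna2 and Pclaf were each lost in 2 of 6 fits without a day 2 library. The day 4 call of Pclaf was lost in 5 of 7 fits without a day 4 library. E2f3, an activator like E2f1, was higher on days 1 and 2 (1.21 and 2.24, edgeR adjusted p = 0.00472 and 0.000842). Nme1, a nucleotide kinase, was higher on all 3 days (1.27, 1.59 and 1.27), and Rbl2, an Rb-family repressor, lower on all 3 (-1.14, -1.02 and -0.93). Samhd1, which degrades nucleotides, was called lower on days 1 and 2 (-0.64 and -0.95). Its day 1 call was lost in 6 of 9 fits without a day 1 library, and its day 2 call in 3 of 6 without a day 2 library. The day 1 value of Samhd1 was 0.27 among low-side libraries. On day 1 the genes Pole4, Shmt1 and Cdk2 were called higher, by 0.65, 1.07 and 0.47, and the calls of Shmt1 and Cdk2 were lost in 1 and 5 of 9 fits without a day 1 library. Shmt1 and Cdk2 were also called higher on day 2 (1.7 and 0.65), calls lost in 1 and 6 of 6 fits without a day 2 library. Asf1a, a histone chaperone, fell on day 4 by 2.31 on the log2 scale (SE 0.53, adjusted p = 0.00533), in contrast to most called genes of its list.

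Mitosis genes had a lower day 1 median than the members. Of 20 of them, such as Mki67 and Top2a, 18 (90%) were lower in EXP on day 1 (median -3.65), as were 14.7% of all genes. On day 2, 9 (45%) were higher (median 2.47), as were 7.72% of all genes. On day 4, 20 (100%) were higher (median 3.18), as were 12.8% of all genes. Without EXP replicate 1 of day 4 the last count was 6, in a fit that called 9% of all genes. Among low-side libraries of day 1 the first count was 2, with 3.58% of all genes called. The day 2 count was 1 without CTRL replicate 1, with 1465 of 18383 genes called over all. Mki67, a marker of cycling cells, had 4.66, 6.61, 9.16 and 3.41 CPM in day 1 CTRL and 0.0404 to 1.02 CPM in day 1 EXP. Their promoters differed from those of the members in the letters searched, with E2F letters in 1 of 18 (5.56%), CCAAT in 17 (94.4%) and TTTGAA in 14 (77.8%). No test was made of these shares.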

How the data were processed

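Bulk RNA-seq of sorted mouse skin fibroblasts was analysed from a table of raw read counts per gene deposited by the authors, with 1 column for each of the 22 libraries and 0 columns outside the labels. Trimmomatic and build mm39 are named in the submitters' processing notes, and the aligner, counter and strand setting are not given in the sources used here. Symbols came from GENCODE M21, which named 52081 of the 55414 identifiers. Promoters came from RefSeq on GRCm38.p6 and were matched by symbol.

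Counts were tested with edgeR 4.0.16 in R 4.3.3. The filter filterByExpr, with a minimum count of 10 and the 6 groups as design, passed 17554 genes, and TMM factors scaled the libraries. A robust quasi-likelihood fit to all 22 libraries, with a mean per group and 16 residual degrees of freedom, gave the EXP effect per day, a joint test of its day dependence, and the change over days in each arm. Benjamini-Hochberg adjustment ran over all tested genes of a contrast, and an adjusted p under 0.05 was called. CPM of members used TMM-scaled totals and CPM of cell type markers library totals.

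On simulated counts for day 2, with 200 of 17554 genes changed, 19% of 2-fold changes and 59% of 4-fold changes were recovered, 4 of the 82 calls were false, and the fit made 0 calls on the unchanged days 1 and 4. Counts of replicate pairs differed beyond sampling noise (36.3 to 624 chi-square units per degree of freedom), so none was merged.

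The members and all lists were chosen with earlier results of these data known. Named genes were, per role, the 2 with the smallest p for day dependence, a fixed set (Mcm2, Cdt1, Pcna, Rrm2, Tk1, E2f1, Ccne1, Ccne2, Uhrf1), and members called on no day or against most called members of the day. From the other lists came the 2 genes with the smallest such p and those called against most of their list. Members outside this rule that are named were chosen after their values were seen. Alternatives were DESeq2 1.42.0 as test or for size factors, limma 3.58.1 (voom), library totals, no count filter, no robust prior, a fold threshold, the replicate number as a block, the library split as a covariate or stratum, each day alone, and each library left out.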

Additional observations from a re-analysis of the deposited data

Results flagged for a closer look

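In 90 groups of 4 or 5 libraries (3 groups for each of 29 named members and for the sum over all members), 5 held a library that stood far from the rest by Dixon's ratio, the gap to the nearest library over the range of the group, beyond the 95% critical value for its size. Chance alone gives about 1 in 20. Mcm10 was highest in CTRL replicate 1 of day 4, at 1.40 CPM against 0.390 to 0.461 CPM (ratio 0.929). Pcna was lowest in CTRL replicate 1 of day 1, at 20.3 against 30.8 to 32.0 CPM (0.902). Gins4 was lowest in CTRL replicate 3 of day 1, at 11.8 against 14.3 to 14.7 CPM (0.873). Tk1 was highest in EXP replicate 1 of day 1, at 2.55 against 0.944 to 1.34 CPM (0.755). Brca1 was highest in EXP replicate 3 of day 1, at 0.436 against 0 to 0.121 CPM (0.722).

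The EXP effect differed between days, by edgeR's joint test, for 19 of the 39 named genes. Among the loading and helicase genes, edgeR adjusted p-values were 0.00134 for Mcm5, 0.0038 for Mcm6, 0.0164 for Mcm2, 0.00346 for Gins2 and 0.0105 for Mcm10. Fork genes had 0.00541 for Lig1 and 0.00732 for Pole, and nucleotide genes 0.00042 for Rrm2 and 0.00262 for Tk1. The E2F group had 0.0264 for E2f1, 0.000836 for E2f7 and 0.0164 for Ccne2. Chromatin and repair genes had 0.00104 for Uhrf1, 0.00181 for Chaf1b, 0.00944 for Brca1 and 0.0373 for Blm. Outside the members, the values were 0.000211 for Ccna2, 0.00104 for Pclaf and 0.0363 for Pole4. For all but E2f1, E2f7, Brca1, Ccne2 and Pole4 the day 2 effect was called higher.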

How the results depend on the processing

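Over 37 alternative fits, 24 members called on day 2 went to 16 to 28 when single libraries were left out, 13 on day 1 to 9 to 16, and 21 on day 4 to 4 to 27. Among low-side libraries 1 member was called on day 1 and 3 on day 4. With library totals 8 were called on day 1 (17%, against 29.2% of all genes) and 33 on day 4 (70.2%, against 30.1%). That scaling moved the median of all genes to 0.21, 0.49 and 0.36 on days 1, 2 and 4. Day 4 alone gave 7, and 0 by edgeR without EXP replicate 1 as well, an alternative chosen after seeing the data. Members changed over days were 22 to 32 in EXP and 0 to 3 in CTRL without single libraries, and 6 in CTRL with DESeq2. Day-dependent effects were 20 to 32. Replicate numbers are shared between arms, and deviations of same-numbered libraries had correlations of -0.07 to 0.16. On day 4 the 3 pairs had 0.0795 to 0.146. Differently numbered libraries were not compared, so these values cannot decide whether libraries were paired. With the number as a replicate block the counts were 11 on day 4, 17 over days in EXP and 15 day-dependent. Of the 76 other genes, 24 called on day 1 became 15 with a fold threshold, 14 on the high side, 1 on the low side and 18 to 28 without single libraries. The 29 on day 2 became 47 with library totals and 9 to 31 without single libraries. The 27 on day 4 became 6 on day 4 alone, 2 on the low side, 17 with the split as covariate, 44 with library totals, 12 with the block, 1 on day 4 alone without EXP replicate 1, and 5 to 35 without single libraries. Calls over all genes without single libraries were 4024 to 5249 on day 1, 891 to 2718 on day 2 and 1633 to 5011 on day 4, against 2257 on the high side and 697 on the low side on day 1, 4632 with library totals on day 2, and 1128 on day 4 alone, 1083 on the low side and 369 on day 4 alone without EXP replicate 1 on day 4. Of 58 called values of named genes, the single change of sign was Samhd1 on day 1, 0.27 on the low side. Where no construction of an alternative (fewer libraries) shows the cause, the cause was not tested. Of the 59 values not called, 20 changed sign in at least 1 setting. At 3 counts, levels under about 0.14 CPM were not detectable.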
